A study of Mus musculus with 17 samples.

Results

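The genes described here encode proteins of the pre-mRNA splicing machinery and its regulators, in mouse oocytes and preimplantation embryos. They are all genes whose only symbol on the array begins with Srsf, Snrp, Sf3a, Sf3b, Prpf or Hnrnp, or with the older forms Sfrs and Hnrp, without Snrpn. This gave 49 of 8251 genes with a symbol of their own, measured by 68 of 12488 probe sets, and 7 further probe sets with such a name were left out because they carried several symbols. The genes fell into 6 classes: 4 Sm core proteins, 4 other proteins of the small nuclear ribonucleoproteins (snRNPs), 8 SF3 subunits, 8 PRPF proteins, 9 SR proteins and 16 hnRNPs.

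The data were 17 Affymetrix MG-U74Av2 arrays, with oocytes and 8-cell embryos on 4 arrays each and 1-cell embryos, 2-cell embryos and blastocysts on 3 each. The labels give mouse and the stage of each sample and say that its total RNA was amplified in 2 rounds of in vitro transcription (IVT). Strain, genotype, age and treatment are not given, nor is the maturation stage of the oocytes. Nothing in the labels tells whether arrays of the same stage hold RNA from different animals or collections of embryos. Their p-values therefore reflect how far these arrays spread, a spread that may be technical.

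Splicing removes introns from pre-mRNA in the spliceosome, which is built on each intron from snRNPs and many further proteins. A ring of Sm proteins holds the RNA of most snRNPs, the SF3a and SF3b complexes belong to the U2 snRNP that marks the branch site, and PRPF proteins act largely in the U4/U6.U5 tri-snRNP and in activation. SR proteins bind exons and mostly favour their inclusion, and hnRNPs coat pre-mRNA and often oppose it. In mouse, the oocyte stores maternal mRNA, which is largely degraded by the 2-cell stage, when the embryo's own genome becomes widely transcribed.

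Promoter sequences are shown for 4 genes described further on whose windows hold the motifs counted here. Snrpe and Sf3b6 carry the ETS core, and Srsf6 and Srsf9 are SR genes that rose from the 1-cell to the 8-cell stage. Each run, from RefSeq on build GRCm38.p6, covers 250 bases before the annotated start and 30 bases after it, 5′ to 3′ on the strand of the gene. The genes were chosen for display after their values were seen. In the first pair, capitals mark CCGGAAG or its reverse complement, a core sequence bound by ETS factors. In the second pair they mark GGGCGG or its reverse complement, the GC box bound by Sp1.
Snrpe (chr1:133610251-133610530, minus strand): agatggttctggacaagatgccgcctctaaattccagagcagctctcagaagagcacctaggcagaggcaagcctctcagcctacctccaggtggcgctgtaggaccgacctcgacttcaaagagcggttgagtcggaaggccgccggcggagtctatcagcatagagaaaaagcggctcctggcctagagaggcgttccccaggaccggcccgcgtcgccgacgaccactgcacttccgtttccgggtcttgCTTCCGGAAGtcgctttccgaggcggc
Sf3b6 (chr12:4817358-4817637, plus strand): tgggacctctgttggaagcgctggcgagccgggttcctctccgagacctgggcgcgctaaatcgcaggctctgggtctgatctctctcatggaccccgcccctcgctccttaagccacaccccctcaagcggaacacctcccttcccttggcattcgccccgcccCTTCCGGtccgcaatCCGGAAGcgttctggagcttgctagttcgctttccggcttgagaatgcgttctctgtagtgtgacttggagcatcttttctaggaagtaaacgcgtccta
Srsf6 (chr2:162931258-162931537, plus strand): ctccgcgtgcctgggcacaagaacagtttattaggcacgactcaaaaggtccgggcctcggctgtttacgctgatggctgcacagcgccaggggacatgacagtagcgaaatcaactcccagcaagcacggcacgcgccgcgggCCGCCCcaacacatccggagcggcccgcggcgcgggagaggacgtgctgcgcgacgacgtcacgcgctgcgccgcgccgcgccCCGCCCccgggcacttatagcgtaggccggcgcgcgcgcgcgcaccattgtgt
Srsf9 (chr5:115326927-115327206, plus strand): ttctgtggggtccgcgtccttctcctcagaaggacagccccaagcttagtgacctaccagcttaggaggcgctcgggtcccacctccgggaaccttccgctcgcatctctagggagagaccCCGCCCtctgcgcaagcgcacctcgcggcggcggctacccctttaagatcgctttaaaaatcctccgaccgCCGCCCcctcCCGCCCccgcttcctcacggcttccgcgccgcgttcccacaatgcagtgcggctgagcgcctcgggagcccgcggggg
In Snrpe the 2 matches lie on opposite strands and overlap, and together they form the capitals just after the start. Sf3b6 held 2 separate matches on opposite strands, Srsf6 held 2 GC boxes and Srsf9 held 3.

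A promoter window of 300 bases was found for 43 of the 48 splicing genes that passed the filter on dim signals, described further on. Of these, 17 (39.5%) held CCGGAAG on either strand, against 997 of 4870 (20.5%) of all tested genes with a window and 2910 of 32851 (8.9%) of all windows. By class it was found in 6 of 7 SF3 genes, 2 of 3 Sm core genes, 2 of 3 other snRNP genes, 3 of 7 PRPF genes, 3 of 9 SR genes and 1 of 14 hnRNP genes. GGGCGG was found in 29 splicing genes (67.4%), against 68.2% of tested genes, and in 8 of 9 SR genes. CCAAT was found in 22 (51.2%, against 43.0%), TATAAA in 5 (11.6%, against 487 of 4870 tested genes) and TCGCGAGA in 4 (9.3%, against 2.7%). GCGCATGC was found in 2 (4.7%, against 6.4%) and TGACGTCA in 1 (2.3%, against 3.5%). No motif contains another. A match describes the letters in this window and is no evidence of binding, and the shares have no test.

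Stage markers fitted the labels in general. The summed signal of 7 oocyte markers, among them the zona pellucida genes Zp1 to Zp3, was 31033 to 32664 in oocytes, 22856 to 28619 in 1-cell embryos and 205.4 to 284 in blastocysts. Of these markers Gdf9, Bmp15 and H1f8 had higher means in 1-cell embryos than in oocytes. The summed signal of 8 blastocyst markers was 9316 to 10665 in blastocysts and at most 1505 on any 8-cell array, although Cdx2 and Krt19 were dim at every stage. Of other cell types, 6 oviduct and uterus markers, of which 5 passed the filter, summed to 454.1 to 7640 over the 8-cell arrays, with the highest sum in 8-cell replicate 2, where Ovgp1, a secreted oviduct glycoprotein, reached 6212. They summed to 1477 to 2023 in 2-cell embryos and to 339.9 to 714.6 at the other stages. Of 11 cumulus and granulosa markers on the array 3 passed the filter, and their sum lay between 120.3 and 388.1 on all arrays, and the sperm and blood sums lay at 164.5 to 441 and 140.7 to 536.6. Arrays of a stage correlated at 0.93 to 0.98 across tested probe sets (probe sets are not independent replicates).

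A probe set was tested when it exceeded 41.1, the median signal of the whole table, on 3 or more arrays. This left 61 of the 68 splicing probe sets and 48 of the 49 genes. Both probe sets of Prpf39 were too dim. The values are signals in arbitrary array units that are not comparable between genes. Each difference below is a difference of mean log2(signal + 11) between stages, which understates changes of dim genes, with its standard error (SE), and a gene was called at an adjusted p below 0.05 from limma over all tested probe sets. Where a gene had several tested probe sets, the one with the highest mean signal stood for it. Since each array carries RNA of whole samples, fewer cells of a type and less RNA per cell cannot be told apart.

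The most one-sided step of the splicing genes was that from the 2-cell to the 8-cell stage. There 26 of the 48 rose and 3 fell, against 26.2% called higher and 29.6% called lower among all 6044 tested genes. The median difference was 0.65 for the splicing genes and -0.07 for all tested genes. From oocyte to 1-cell embryo 17 rose and 8 fell, against 18% and 21% of all genes. From the 1-cell to the 2-cell stage 17 rose (35.4%) and 12 fell (25%), against 25.9% and 22.8% of all genes, and after median centring 13 rose and 16 fell. From 8-cell embryo to blastocyst only 2 rose, Hnrnpc and Sf3b5, and 14 fell, against 23.1% and 20.6% of all genes. Without 8-cell replicate 2, the array with the highest sum of oviduct and uterus markers, 27 rose and 3 fell from the 2-cell to the 8-cell stage, and 3 rose and 12 fell into the blastocyst. The 2-cell arrays, where these markers summed to 1477 to 2023, stayed in that comparison. Leaving out 8-cell replicate 4 took the 2 rises into the blastocyst to 0, and leaving out blastocyst replicate 1 or 2 took them to 1. The 14 falls became 8 without blastocyst replicate 1. Across the whole period, 27 genes were higher in blastocysts than in oocytes and 5 lower, against 32.4% and 33.8% of all genes. By the moderated F test 44 of 48 differed between any of the stages, near the 86% of all genes. The other 4 were Sf3a1, Snrpb2, Prpf4b and Prpf19.

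These directions are relative to the other genes on each array. As an alternative, arrays were scaled on the hybridisation spikes, the control transcripts read by the BioB, BioC, BioDn and CreX probe sets. As controls of hybridisation they are no measure of RNA per embryo. Their mean log2(signal + 11) had a standard deviation of 0.60 over the 1-cell arrays and 0.17 to 0.35 within the other stages. With this scaling the median of all tested probe sets moved by -1.08, 0.28, -0.70 and 1.09 in the 4 steps from oocyte to blastocyst. Under that scaling 0 splicing genes rose and 25 fell into the 1-cell stage, 5 rose and 7 fell into the 8-cell stage, and 31 rose and 1 fell into the blastocyst. The shares of all genes called under that scaling are not given here, so these counts do not set the splicing genes apart from other genes. This scaling shifts all probe sets of an array by the same amount. The median of the splicing genes minus that of all tested probe sets therefore could not change. It was 0.34, -0.00, 0.71 and -0.08 under either scaling. The spikes and the 18S ribosomal RNA probe sets themselves differed by 1.12 and 4.90 between the oocyte and 1-cell arrays. Their part in the results was not tested.

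**Figure D1:**
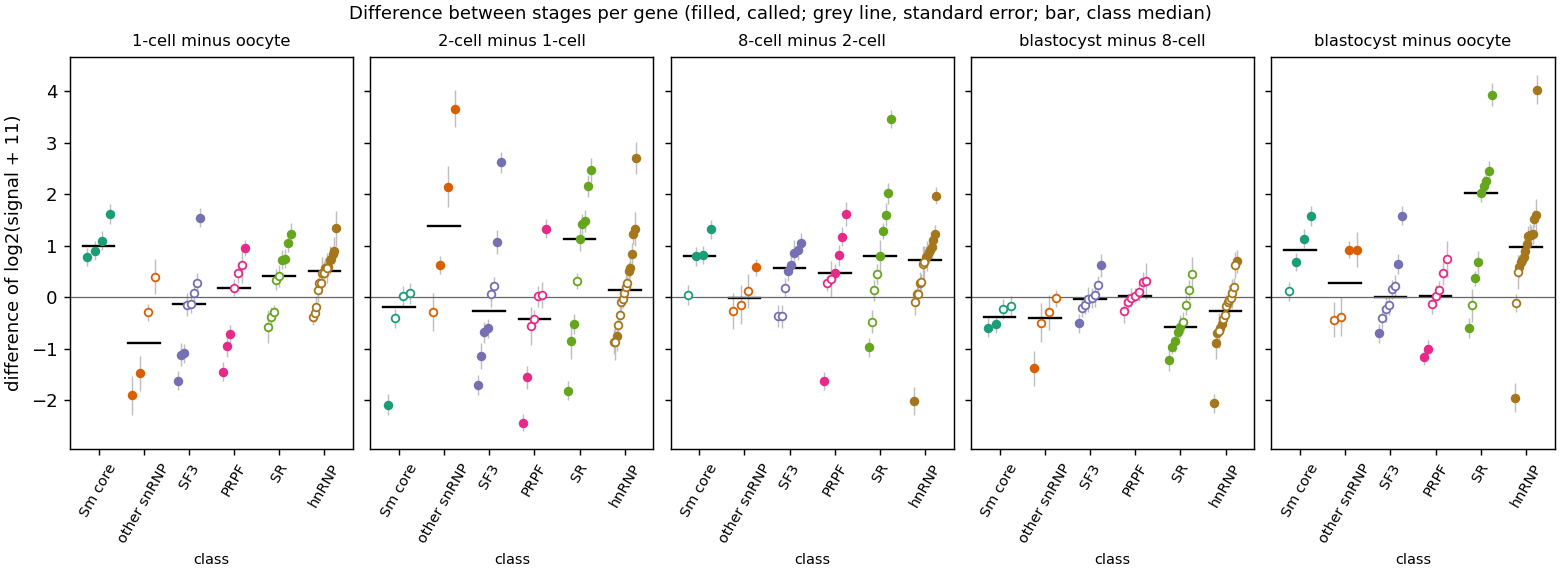
Difference of mean log2(signal + 11) for each of the 48 splicing genes (points) in the 5 comparisons, by class; filled points were called, grey lines are standard errors and bars are class medians. Most classes lie above 0 from the 2-cell to the 8-cell stage, with 26 genes called higher and 3 lower, which became 5 and 7 when arrays were scaled on the hybridisation spikes. Under that scaling the median of all tested probe sets moved by -0.70 in this step.

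The 8-cell stage held the highest mean of 26 of the 48 splicing genes (54.2%), against 1181 of 6044 tested genes (19.5%). The oocyte held the lowest mean of 17 (35.4%), against 16.4% of all genes. By class, the 8-cell mean was the highest in 11 of 16 hnRNP, 6 of 9 SR, 3 of 4 Sm core, 2 of 4 other snRNP, 2 of 8 SF3 and 2 of 7 PRPF genes. The count at the 8-cell stage was 22 after quantile normalization and 20 after median centring, against 1183 and 1130 of all 6044 genes. When arrays were scaled on the spikes it was 1, against 142 of all genes. There 27 splicing genes had their highest mean in the blastocyst and 16 in the oocyte, against 1932 and 3313 of all 6044 genes.

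**Figure D2:**
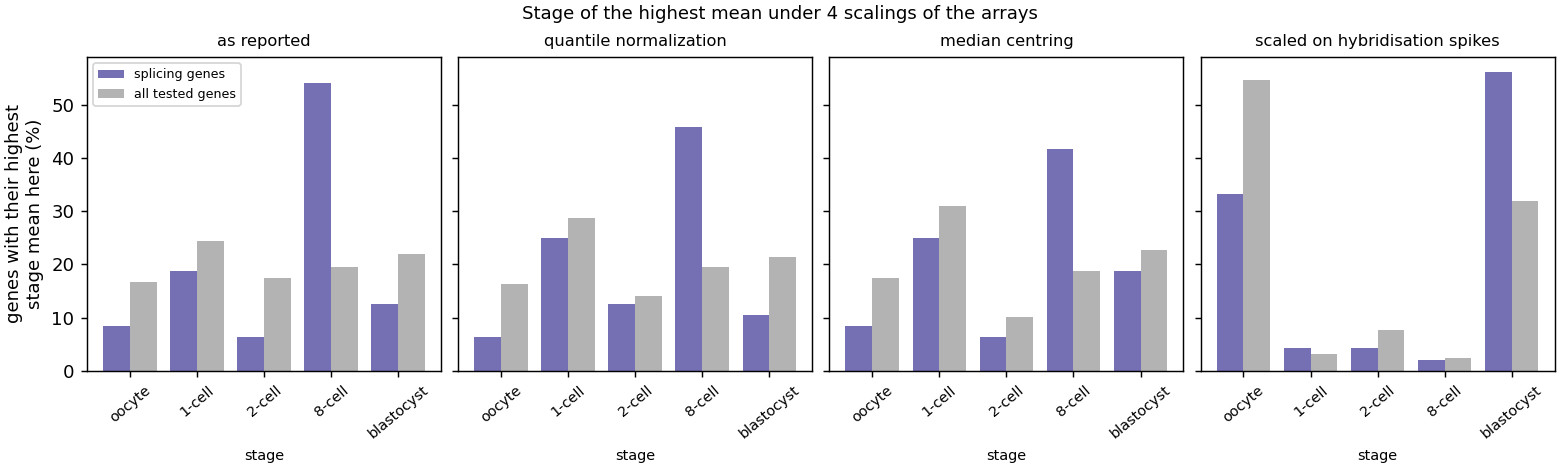
Share of genes (in percent) whose highest stage mean lies at each stage, for the 48 splicing genes and all 6044 tested genes, under 4 scalings of the arrays. The 8-cell bar of the splicing genes stands at 54.2% with the signals as reported. When arrays are scaled on the hybridisation spikes, their highest bar is at the blastocyst, and that of all tested genes is at the oocyte.

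Some sequences of calls over the 4 steps recurred among the splicing genes. Prpf38b, Sf3a2, Sf3b2, Sf3b3 and Srsf10 fell into the 2-cell stage and rose again into the 8-cell stage, a sequence shared by 77 of all 6044 genes. Hnrnpa1, Hnrnph1, Snrpb and Snrpe rose into the 1-cell stage, rose into the 8-cell stage and fell into the blastocyst, a sequence found in 23 genes in all. Hnrnpa2b1, Srsf6 and Srsf9 rose in 2 steps from the 1-cell to the 8-cell stage and then fell, as did 148 genes in all.

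**Figure D3:**
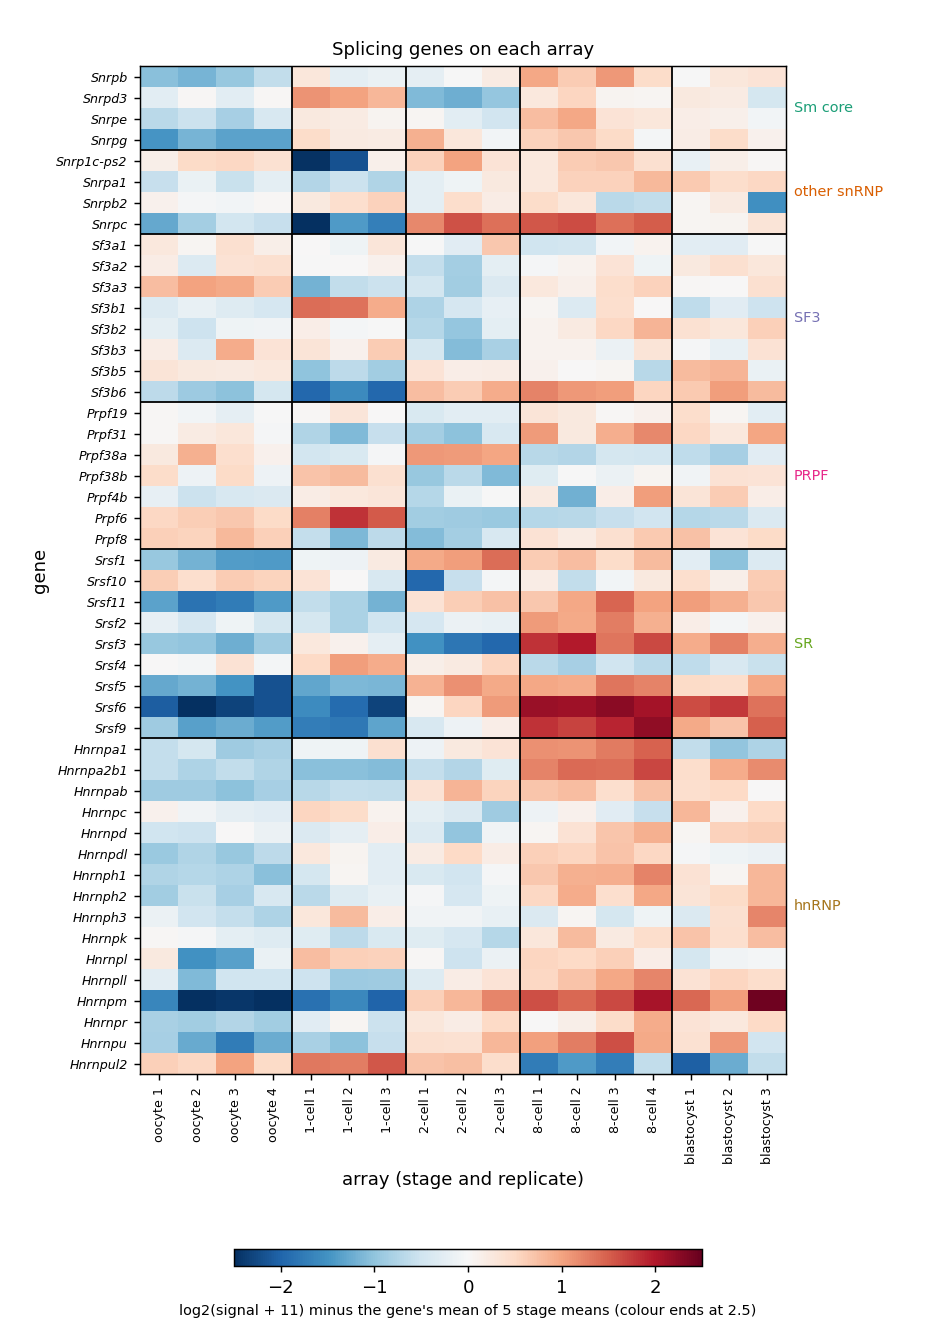
Heat map of log2(signal + 11) minus the gene's mean of its 5 stage means, for the 48 splicing genes (rows, by class) on the 17 arrays (columns, by stage); red is high and blue low. Srsf6, Srsf9 and Hnrnpm are low in oocytes and 1-cell embryos and high on all 8-cell arrays, while Hnrnpul2 and Prpf6 run the other way, all with the signals as scaled by the authors.

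The Sm proteins form the ring around the snRNA. All 4 genes measured rose from oocyte to 1-cell embryo, against 18% of all genes, with a median difference of 1.00. None was called under the spike scaling, where 3 of the differences were below 0. The class median there was -0.11, against -1.08 for all tested probe sets. Snrpg signals were 295.8, 368.5, 324.6 and 323.2 in oocytes, 1158.4, 979.4 and 962.3 in 1-cell embryos, 1557.4, 1028.7 and 800.8 in 2-cell embryos, 1256.4, 1338.7, 1169.4 and 809.8 in 8-cell embryos and 957.6, 1151.1 and 899.1 in blastocysts. Every array after the oocyte stage was above every oocyte array, by a difference of 1.62 (SE 0.20, adjusted p = 1.2e-06) in the first step, and no later step was called. Snrpd3 behaved otherwise. Its signals were 177.9, 222.7, 178.5 and 223.1 in oocytes, 485.1, 448.5 and 391.6 in 1-cell embryos, 95.6, 86.2 and 105.9 in 2-cell embryos, 262.3, 317.6, 226.4 and 225.9 in 8-cell embryos and 258.9, 251.6 and 156.6 in blastocysts. The first 4 stages did not overlap in consecutive steps. It rose by 1.10 (SE 0.19, adjusted p = 7.1e-05), fell by 2.08 (SE 0.20, adjusted p = 1.5e-08) into the 2-cell stage and rose by 1.32 (SE 0.19, adjusted p = 3.4e-06) into the 8-cell stage.

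Snrpb, which encodes SmB/B′, and Snrpe rose into the 1-cell stage and again into the 8-cell stage. Snrpb signals were 1518.3, 1391.3, 1609.8 and 2025.6 in oocytes, 3812.7, 2653.2 and 2799.7 in 1-cell, 2673.8, 3083.9 and 3602.7 in 2-cell and 6143.3, 4884.4, 6602.7 and 4303 in 8-cell embryos, and 3094.2, 3800.9 and 3949.7 in blastocysts. The step into the 8-cell stage was 0.80 (SE 0.18, adjusted p = 0.0008), and the fall into the blastocyst was 0.59 (SE 0.18, adjusted p = 0.0131) and was lost without blastocyst replicate 1 (-0.48). Snrpe signals were 2001.6, 2206.1, 1790.3 and 2401.1, then 3800.6, 3677.7 and 3332.6, 3303.9, 2665.9 and 2280.2, 5471.4, 6212, 4041 and 3891 and 3575.5, 3499 and 3023 at the same stages. Its step into the 8-cell stage was 0.82 (SE 0.17, adjusted p = 0.00041). Both rises into the 8-cell stage were lost after quantile normalization, at 0.07 for Snrpb and 0.17 for Snrpe, and so were both falls into the blastocyst, at -0.12 and -0.12. The Snrpe fall (-0.52 (SE 0.17)) was also lost without 8-cell replicate 1 (-0.46), 8-cell replicate 2 (-0.39) or blastocyst replicate 3 (-0.44). The probe sets of both genes have names that mark shared or dropped probes.

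Among the other snRNP proteins, Snrpc, the U1-C protein that helps U1 pair with the 5′ splice site, changed most. Its signals were 124.1, 169.5, 226.1 and 209.1 in oocytes, 14.9, 110.7 and 88.5 in 1-cell embryos, 741.2, 980.2 and 841.6 in 2-cell embryos, 953.4, 995.8, 838.2 and 922.1 in 8-cell embryos and 324.7, 330.4 and 396.2 in blastocysts. The 2-cell and 8-cell arrays were far above all others, and the 1-cell arrays were the lowest and differed widely. Snrpc fell by 1.48 (SE 0.34, adjusted p = 0.0014) into the 1-cell stage (-0.78 without 1-cell replicate 1), rose by 3.66 (SE 0.36, adjusted p = 2.2e-08) into the 2-cell stage and fell by 1.38 (SE 0.34, adjusted p = 0.0022) into the blastocyst. Its difference between blastocyst and oocyte of 0.93 (SE 0.34) was called, and lost without oocyte replicate 1 (0.77) or blastocyst replicate 3 (0.84).

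Snrp1c-ps2, by its symbol a pseudogene of the U1-C gene whose probe set can share transcripts with it, had signals of 301, 378, 388.9 and 354 in oocytes, 39.3, 50.6 and 294 in 1-cell and 404.9, 553.1 and 343.3 in 2-cell embryos. It was low on 2 of the 3 1-cell arrays, and the called differences were -1.89 (SE 0.38) and 2.15 (SE 0.40). At the 8-cell and blastocyst stages it lay between 235.3 and 437.5. Snrpa1, a protein of the U2 snRNP, rose by 0.64 (SE 0.18, adjusted p = 0.0051) into the 2-cell stage and by 0.59 (SE 0.17, adjusted p = 0.0047) into the 8-cell stage. Its signals went from 262.7, 304 and 257.9 in 1-cell embryos to 533.4, 664.5, 665 and 783.7 in 8-cell embryos, with no overlap. The first of these steps lost its call after median centring (0.36), and the second was -0.05 under the spike scaling. Snrpb2, the partner of Snrpa1 in the U2 snRNP, was called in none of the 5 comparisons through the probe set that stood for it.

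The SF3 genes had no fall into the 8-cell stage. Into the 1-cell stage 1 of 8 rose and 3 fell, into the 2-cell stage 2 rose and 4 fell, and into the 8-cell stage 5 rose and 0 fell. Of all tested genes, 18%, 25.9% and 26.2% rose and 21%, 22.8% and 29.6% fell in these steps. Under the spike scaling the last step had 0 rises and 2 falls, with a class median of -0.07, against -0.70 for all tested probe sets. Sf3b1, the subunit that clamps the branch site, had signals of 845.3, 939.1, 863.5 and 798.6 in oocytes, 2834.5, 2789.9 and 2067.5 in 1-cell embryos, 622, 795.9 and 929 in 2-cell embryos, 1117.2, 844.7, 1439.5 and 1077.1 in 8-cell embryos and 692.9, 887.7 and 749.5 in blastocysts. The 1-cell arrays stood alone above the rest. It rose by 1.55 (SE 0.18, adjusted p = 5.5e-07) and fell back by 1.70 (SE 0.19, adjusted p = 1.6e-07), and its other probe set gave 0.86 (SE 0.16) and -1.13 (SE 0.18), both called. The later steps of 0.50 (SE 0.18) and -0.50 (SE 0.18) were called, and each lost its call without 8-cell replicate 3 (0.38 and -0.38). The first was also lost without 2-cell replicate 1 (0.35), and the second without 8-cell replicate 1 (-0.50) or blastocyst replicates 1 (-0.43) or 3 (-0.48) or after median centring (-0.45).

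Sf3b6, the small subunit that lies at the branch-site adenosine, ran almost the opposite way. Its signals were 274.8, 228, 208.9 and 319.3 in oocytes, 104.2, 137.3 and 103.6 in 1-cell embryos, 757, 682 and 844.2 in 2-cell embryos, 1044.3, 933.1, 913.8 and 634 in 8-cell embryos and 692.9, 908.4 and 766.7 in blastocysts. The 1-cell arrays were the lowest, and all arrays from the 2-cell stage on were above all earlier ones. It fell by 1.09 (SE 0.18, adjusted p = 7.4e-05) and then rose by 2.62 (SE 0.20, adjusted p = 3.7e-10). Sf3b5, another small subunit of SF3b, also fell into the 1-cell stage, by 1.11 (SE 0.21, adjusted p = 0.00029), and rose by 1.07 (SE 0.23, adjusted p = 0.00051) into the 2-cell stage. Its rise into the blastocyst of 0.62 (SE 0.21) was lost without 8-cell replicate 4 (0.43), blastocyst replicate 1 (0.47) or blastocyst replicate 2 (0.44), and was 0.95 without blastocyst replicate 3.

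Sf3a3, a subunit of SF3a, had signals of 1046.7, 1243.3, 1188.6 and 962.2 in oocytes and 263.4, 395.4 and 419.8 in 1-cell embryos, with no overlap. It fell by 1.62 (SE 0.18, adjusted p = 3.8e-07), was at 444.7, 328.5 and 472.5 in 2-cell embryos, and rose by 0.92 (SE 0.18, adjusted p = 0.00019) to 734.3, 672.4, 833.6 and 919.5 in 8-cell embryos, with 623.2, 619.9 and 806.4 in blastocysts. Sf3b2 and Sf3b3, large subunits of SF3b, fell into the 2-cell stage by 0.68 (SE 0.21, adjusted p = 0.0107) and 1.13 (SE 0.26, adjusted p = 0.00094), and rose into the 8-cell stage by 1.06 (SE 0.20, adjusted p = 9.3e-05) and 0.86 (SE 0.24, adjusted p = 0.0046). The Sf3b2 fall was lost without 2-cell replicate 2 (-0.51). Sf3a1 was called in no comparison, with signals between 72.7 and 178.1 on all arrays.

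The PRPF genes had 1 rise and 3 falls into the 1-cell stage, and 4 rises and 1 fall into the 8-cell stage, against 1 and 1 in the latter under the spike scaling. Of all tested genes, 18% and 26.2% rose and 21% and 29.6% fell in these steps with the signals as reported. Under the spike scaling the class median into the 8-cell stage was -0.16, against -0.70 for all tested probe sets. Prpf6, which bridges U5 and U4/U6 in the tri-snRNP, had signals of 910.1, 974.7, 1021 and 883.5 in oocytes, 1534, 2226.6 and 1848.8 in 1-cell embryos, 339.2, 334.5 and 328.6 in 2-cell embryos, 379, 384.8, 418 and 452.7 in 8-cell embryos and 379.2, 390.6 and 493.1 in blastocysts. The 2 early stages were above all later arrays. After a rise of 0.96 (SE 0.15, adjusted p = 2.3e-05) it fell by 2.43 (SE 0.16, adjusted p = 3.5e-11), and it was lower in blastocysts than in oocytes by -1.16 (SE 0.15, adjusted p = 5.2e-07).

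Prpf8, the scaffold of the catalytic core, and Prpf31, a U4/U6 protein, fell and recovered. Prpf8 signals were 381.6, 372.1, 445.3 and 381.8 in oocytes, 160.1, 107.9 and 152.6 in 1-cell embryos, 111.4, 133.3 and 186.2 in 2-cell embryos, 323.8, 287.5, 331.2 and 395.7 in 8-cell embryos and 422.3, 316.1 and 349.7 in blastocysts. The 1-cell and 2-cell arrays were below all others. It fell by 1.44 (SE 0.19, adjusted p = 2.3e-06) and rose by 1.18 (SE 0.19, adjusted p = 1.3e-05). Prpf31 went from 180.3, 207.1, 217.7 and 173.9 in oocytes to 100.1, 76.5 and 115.8 in 1-cell embryos and 93.8, 81 and 131.1 in 2-cell embryos, then to 384.4, 210.8, 342.6 and 422.2 in 8-cell embryos. Its rise into the 8-cell stage was 1.62 (SE 0.23, adjusted p = 3.8e-06), after a fall of 0.93 (SE 0.23, adjusted p = 0.0026).

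Prpf38a, a protein needed when the assembled spliceosome is activated, was the PRPF gene with its peak at the 2-cell stage. Its signals were 986.8, 1547, 1122.7 and 904.6 in oocytes, 605.9, 633.7 and 811.7 in 1-cell embryos, 1779.2, 1744.5 and 1662.5 in 2-cell embryos, 513.5, 499.9, 607.5 and 601.2 in 8-cell embryos and 531.3, 463.6 and 683.2 in blastocysts. Every 2-cell array was above every other array. It rose by 1.34 (SE 0.19, adjusted p = 4.5e-06) and fell by 1.62 (SE 0.18, adjusted p = 9.4e-08). Prpf38b moved the other way in the same steps, falling by 1.55 (SE 0.21, adjusted p = 2.8e-06) and rising by 0.82 (SE 0.20, adjusted p = 0.0016).

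The SR genes had the widest range of the 6 classes, a median of 2.61 between the highest and lowest stage mean against 1.80 over all tested genes. By the F test 9 of 9 differed between stages, against 86% of all genes. In blastocysts 7 of 9 were higher than in oocytes and 1 lower, against 32.4% and 33.8% of all genes, with a median difference of 2.04. Under the spike scaling 5 rose and 1 fell, with a class median of 1.68, against -0.43 for all tested probe sets. The largest class median of a single step was that into the 2-cell stage (1.13, with 5 rises and 3 falls), and it was 1.36 with 5 rises and 1 fall under the spike scaling. Into the 8-cell stage the class median was 0.80, with 5 rises and 1 fall, and 0.16 with 3 rises and 2 falls under the spike scaling. From 8-cell embryo to blastocyst 0 rose and 5 fell, while under the spike scaling 3 rose and 0 fell. With the signals as reported, 25.9%, 26.2% and 23.1% of all tested genes rose into the 2-cell stage, the 8-cell stage and the blastocyst. The shares that fell were 22.8%, 29.6% and 20.6%. Under the spike scaling the median of all tested probe sets moved by 0.28, -0.70 and 1.09 in these steps, and the class median by 1.36, 0.16 and 0.61.

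Srsf6 had the largest difference between blastocyst and oocyte of the SR genes. Its signals were 181.9, 101.6, 151.9 and 167 in oocytes, 262.5, 201.4 and 151.5 in 1-cell embryos, 821.6, 1156.3 and 1678.9 in 2-cell embryos, 3590, 3490.8, 3853.6 and 3428.3 in 8-cell embryos and 2508.2, 2727.6 and 2070.1 in blastocysts. The first 2 stages overlapped, and each later stage was clear of its neighbours. It rose by 2.48 (SE 0.24, adjusted p = 1.2e-08) into the 2-cell stage and by 1.61 (SE 0.22, adjusted p = 2.2e-06) into the 8-cell stage, and was higher in blastocysts than in oocytes by 3.94 (SE 0.22, adjusted p = 1.1e-12). The fall into the blastocyst of -0.57 (SE 0.22) was lost when any array but blastocyst replicate 2 of these stages was left out, with values of -0.45 to -0.59, and after quantile normalization (-0.23) or median centring (-0.51), and was 0.61 under the spike scaling.

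Srsf9 signals were 188.2, 133.5, 145.5 and 130.5 in oocytes, 101.2, 96.9 and 137.1 in 1-cell embryos, 268.7, 327.7 and 404.4 in 2-cell embryos, 1279.4, 1179.5, 1366.5 and 1717 in 8-cell embryos and 702.4, 593.9 and 1029.9 in blastocysts. The 8-cell arrays were above all others. It rose by 1.49 (SE 0.22, adjusted p = 5.8e-06) and 2.02 (SE 0.20, adjusted p = 2.3e-08) in 2 steps and then fell by 0.85 (SE 0.20, adjusted p = 0.0017). Srsf5 rose in 1 step. Its signals were 503.9, 536.4, 429.1 and 263 in oocytes, 492.3, 558.4 and 554.9 in 1-cell embryos, 2249.8, 2733.3 and 2378.2 in 2-cell embryos, 2439.1, 2342.7, 3127.8 and 2917.4 in 8-cell embryos and 1733.9, 1688.1 and 2412.7 in blastocysts. Only the step into the 2-cell stage was called, at 2.17 (SE 0.21, adjusted p = 2.1e-08). Srsf11 rose by 0.73 (SE 0.19, adjusted p = 0.004) and 1.43 (SE 0.20, adjusted p = 4.6e-06) in the first 2 steps and was higher in blastocysts than in oocytes by 2.46 (SE 0.19, adjusted p = 2.4e-10).

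Srsf3, the smallest SR protein and also an adaptor for mRNA export, dropped at the 2-cell stage before its largest rise. Its signals were 283.4, 277.6, 234.9 and 298.7 in oocytes, 673.6, 600.1 and 475.4 in 1-cell embryos, 187.9, 151.9 and 134.8 in 2-cell embryos, 1995.1, 2236.3, 1425.9 and 1789.9 in 8-cell embryos and 1074.3, 1354.8 and 1053.3 in blastocysts. No consecutive stages overlapped. It rose by 1.05 (SE 0.17, adjusted p = 5.5e-05), fell by 1.81 (SE 0.19, adjusted p = 4.6e-08), and rose by 3.46 (SE 0.17, adjusted p = 5.6e-13) into the 8-cell stage, the largest rise of the 48 genes in that step. Srsf2, known as SC35, held 1832.8, 1560.4, 1960.9 and 1551.1 in oocytes, 1540.8, 1217.7 and 1489.4 in 1-cell embryos, 1579.6, 1898.2 and 1843.6 in 2-cell embryos, 4415.5, 4055.4, 5097.7 and 3886.2 in 8-cell embryos and 2358.4, 2042.9 and 2281.9 in blastocysts. Its 8-cell arrays were above all others, with a rise of 1.29 (SE 0.15, adjusted p = 1.5e-07) and a fall of 0.96 (SE 0.15, adjusted p = 1.7e-05), the latter 0.21 under the spike scaling.

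Srsf4 was the SR gene called lower in blastocysts than in oocytes, by 0.59 (SE 0.19, adjusted p = 0.0089). Its signals were 120.1, 114.4, 157.1 and 114.1 in oocytes, 171.6, 255.8 and 237.3 in 1-cell embryos, 133.7, 141.6 and 176.7 in 2-cell embryos, 70.3, 62.4, 81.6 and 70.8 in 8-cell embryos and 73.1, 88.2 and 77.8 in blastocysts. It rose by 0.75 (SE 0.19, adjusted p = 0.0029) into the 1-cell stage and fell by 0.97 (SE 0.19, adjusted p = 0.00015) into the 8-cell stage, where no array reached the lowest 2-cell array. The fall into the 2-cell stage of -0.52 (SE 0.20) was lost without 1-cell replicates 2 (-0.41) or 3 (-0.46) or 2-cell replicates 1 (-0.44) or 2 (-0.48). The other probe set of Srsf4 gave -0.19 (SE 0.23) between blastocyst and oocyte and was not called.

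**Figure D4:**
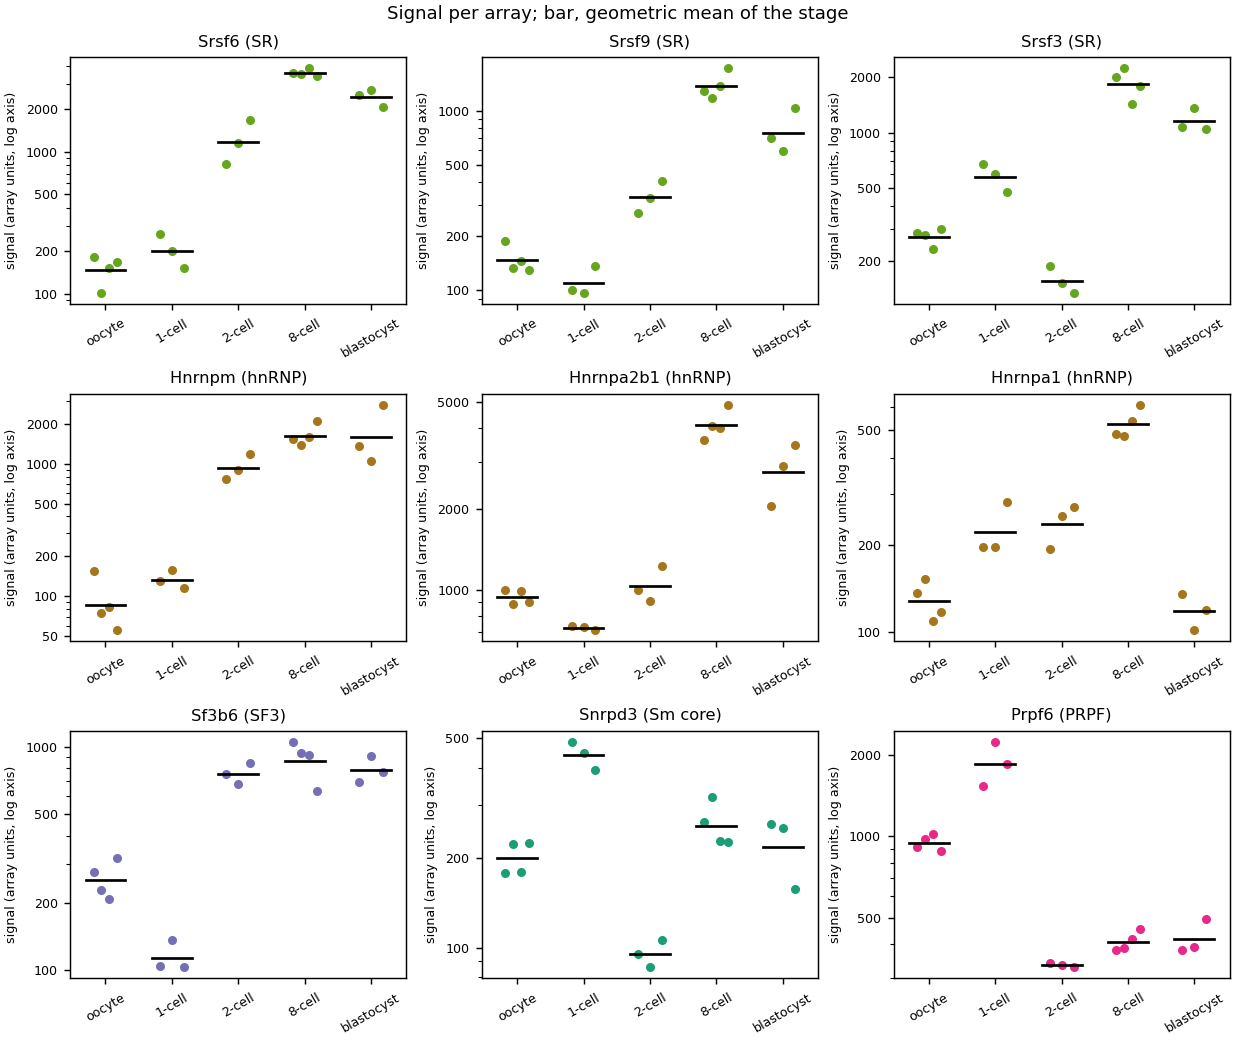
Signal on each array (points, log axis, array units) and geometric mean of the stage (bars) for 9 splicing genes at the 5 stages. Srsf6 and Srsf9 rise from the 1-cell to the 8-cell stage, Srsf3 and Snrpd3 dip at the 2-cell stage, and Prpf6 is high only in oocytes and 1-cell embryos; under the spike scaling the falls of Srsf6 and Srsf9 into the blastocyst turn into differences of 0.61 and 0.32.

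Most hnRNP genes ended higher than they began. In blastocysts 13 of 16 were higher than in oocytes and 1 lower, with a median difference of 0.97, and 7 rose and 1 fell under the spike scaling. Into the 1-cell stage 7 rose and 0 fell, but 0 rose and 6 fell under the spike scaling. Into the 8-cell stage 8 rose and 1 fell, and under the spike scaling 1 rose and 1 fell. With the signals as reported, 32.4% of all tested genes were higher and 33.8% lower in blastocysts than in oocytes. Into the 1-cell stage 18% of them rose and 21% fell, and into the 8-cell stage 26.2% rose and 29.6% fell. Under the spike scaling the class median was 0.62 between blastocyst and oocyte, -0.59 into the 1-cell stage and 0.10 into the 8-cell stage. For all tested probe sets these medians were -0.43, -1.08 and -0.70, so the counts under that scaling do not set the hnRNP genes apart. Hnrnpm, a regulator of exon choice, had signals of 154.1, 75.3, 83.3 and 55.6 in oocytes, 129.9, 156.4 and 116.3 in 1-cell embryos, 761.3, 895.9 and 1184.1 in 2-cell embryos, 1545.3, 1375.8, 1582.3 and 2120.2 in 8-cell embryos and 1371.1, 1046.3 and 2759.5 in blastocysts. All arrays from the 2-cell stage on were above all earlier ones. It rose by 2.71 (SE 0.31, adjusted p = 1.8e-07) into the 2-cell stage and was higher in blastocysts than in oocytes by 4.03 (SE 0.29, adjusted p = 6.0e-11), the largest such difference of the 48 genes. The step into the 8-cell stage of 0.80 (SE 0.29) was lost without 2-cell replicates 1 (0.66) or 2 (0.78) or 8-cell replicate 4 (0.68) and after quantile normalization (0.65).

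Hnrnpa1 and Hnrnpa2b1 encode related proteins that bind silencer elements, and both peaked at the 8-cell stage. Hnrnpa2b1 signals were 995.7, 887.7, 993.4 and 900 in oocytes, 733.1, 730.7 and 709.7 in 1-cell embryos, 998.1, 908.9 and 1233.1 in 2-cell embryos, 3606.2, 4094.4, 4004.7 and 4867.1 in 8-cell embryos and 2051, 2905.7 and 3471.1 in blastocysts. It rose by 1.98 (SE 0.16, adjusted p = 1.5e-09) into the 8-cell stage, where every array was above all others. The fall into the blastocyst of -0.58 (SE 0.16) was lost without blastocyst replicate 1 (-0.37) or after quantile normalization (-0.18). The step into the 2-cell stage of 0.51 (SE 0.18) was lost without 1-cell replicate 3 (0.50) or 2-cell replicate 3 (0.39) or after median centring (0.24).

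Hnrnpa1 rose in 2 separate steps and then fell. Its signals were 136.4, 152.8, 109 and 116.9 in oocytes, 197, 197.4 and 282.2 in 1-cell embryos, 194.3, 252.8 and 271.5 in 2-cell embryos, 483.6, 476.1, 537.2 and 610.2 in 8-cell embryos and 135.2, 101.3 and 119 in blastocysts. The oocyte and blastocyst arrays overlapped, with a difference of -0.11 (SE 0.18) that was not called. It rose by 0.75 (SE 0.18, adjusted p = 0.0023) and 1.11 (SE 0.18, adjusted p = 2.3e-05) into the 1-cell and 8-cell stages and fell by 2.06 (SE 0.18, adjusted p = 1.2e-08) into the blastocyst, the largest fall of the 48 genes in that step. Under the spike scaling the 2 rises lost their calls, at -0.37 and 0.47, and the fall was still called, at -0.88.

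Hnrnph1, which binds runs of G, rose by 1.23 (SE 0.19, adjusted p = 8.2e-06) from 706.7, 656 and 902.8 in 2-cell to 1480.2, 1711.4, 1749.3 and 2208.9 in 8-cell embryos. Its fall into the blastocyst of -0.52 (SE 0.19) was lost without 8-cell replicate 4 (-0.41), blastocyst replicate 1 (-0.49) or blastocyst replicate 2 (-0.33) and after quantile normalization (-0.38) or median centring (-0.46), and its rise into the 1-cell stage of 0.60 (SE 0.19) without 1-cell replicate 2 (0.47). Hnrnpd, an AU-rich element binding protein, Hnrnph2, a close relative of Hnrnph1, and Hnrnpk, which binds runs of C, rose only in the step to the 8-cell stage, by 0.97 (SE 0.23, adjusted p = 0.0013), 0.89 (SE 0.21, adjusted p = 0.001) and 0.92 (SE 0.17, adjusted p = 9.3e-05). Under the spike scaling these 4 steps lost their calls.

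Hnrnpab and Hnrnpll rose into the 2-cell stage, by 1.22 (SE 0.18, adjusted p = 6.4e-06) and 0.84 (SE 0.23, adjusted p = 0.004), and the second call was lost after median centring (0.56). Hnrnpu, a nuclear scaffold protein, was dim, with signals of 12.4, 6.3, 1.4 and 6.7 in oocytes, 12.9, 9.5 and 17.1 in 1-cell embryos and 43.7, 43 and 63.4 in 2-cell embryos. It was called higher into the 2-cell stage, but all its oocyte and 1-cell signals were below 41.1 and it passed the filter through the later stages, so no size is given. Its other probe set, which did not pass the filter, held 15.2, 32.2 and 40.3 in 1-cell and 8.3, 18.5 and 26.5 in 2-cell embryos. Hnrnpc, which binds runs of U, fell into the 2-cell stage by 0.86 (SE 0.24, adjusted p = 0.0058). It was one of the 2 genes that rose into the blastocyst, by 0.70 (SE 0.23, adjusted p = 0.0172), from 83.8, 100.7, 73.3 and 58 in 8-cell embryos to 172, 100.4 and 134.7 in blastocysts. The stages overlapped slightly, and the rise was lost without 8-cell replicate 4 (0.58) or blastocyst replicate 1 (0.52).

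Hnrnpul2 was the hnRNP gene called lower in blastocysts than in oocytes. Its signals were 339.2, 319.4, 453.8 and 312.9 in oocytes, 566.6, 549 and 663.7 in 1-cell embryos, 367.6, 377.9 and 304.4 in 2-cell embryos, 58.2, 75.5, 58.4 and 140.9 in 8-cell embryos and 45.3, 87.4 and 140.6 in blastocysts. Every 8-cell and blastocyst array was below every earlier one. The fall into the 8-cell stage was 2.01 (SE 0.28, adjusted p = 2.6e-06), while the other probe set of the gene gave -0.40 (SE 0.22) in this step and was not called. Nor was that probe set called between blastocyst and oocyte (-0.31 (SE 0.22)). The first steps of 0.73 (SE 0.28) and -0.74 (SE 0.30) were called but lost without most single arrays, at 0.65 to 0.78 and -0.65 to -0.80. The first was also lost after median centring (0.78) and the second after quantile normalization (-0.75).

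Of the 48 genes, 12 had several tested probe sets, in 13 pairs. In 20 of 65 pairs of probe sets and comparisons the probe sets disagreed, by opposite calls or by differences more than 1 apart on the log2 scale, in 9 genes, and in 6 the calls were opposite. The size of change reported for these genes therefore depends on the probe set. For Srsf1, Srsf10, Prpf19, Sf3a2 and Hnrnpdl so does the direction of a call. Srsf1, the founding SR protein, was the widest case. The probe set that stood for it held 31.3, 25, 19.9 and 19.6 in oocytes, 146, 156.3 and 202.3 in 2-cell embryos, 114.7, 127.6, 100.2 and 129.1 in 8-cell embryos and 56.4, 29.1 and 52.9 in blastocysts, and fell by 1.20 (SE 0.22, adjusted p = 0.00014) into the blastocyst. A further probe set held 11.8, 14.6, 7.8 and 11.1 in oocytes, 29.3, 43.7 and 50.8 in 2-cell embryos, 152.9, 85.7, 88 and 70.7 in 8-cell embryos and 201.7, 234 and 281.7 in blastocysts, and rose there by 1.22 (SE 0.25, adjusted p = 0.00038). The third tested one rose by 0.73 (SE 0.24, adjusted p = 0.02). In oocytes the first 2 probe sets were below 41.1 on every array and passed the filter through later stages, so no size is given for their difference from oocytes.

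Srsf10, an SR protein that can repress splicing, rose by 0.80 (SE 0.32, adjusted p = 0.0417) into the 8-cell stage on the probe set that stood for it. On the other it was called lower, with 8-cell signals of 13.4 to 25.1, all below 41.1. That probe set passed the filter through other stages, so no size is given. On the first probe set, the rise and the preceding fall (-0.84 (SE 0.35)) rest on 2-cell replicate 1, without which they were 0.25 and -0.29. The rise was also lost without 8-cell replicates 1 (0.72), 3 (0.80) or 4 (0.70), and the fall without 1-cell replicates 1 (-0.67) or 2 (-0.83). Prpf19, a ubiquitin ligase of the activated spliceosome, was called higher into the 8-cell stage (0.48 (SE 0.17)) on the first probe set and lower on the other. The first call was lost without 2-cell replicate 1 (0.44) or 8-cell replicate 1 (0.43). The other probe set held 12.1 to 21.7 in 8-cell embryos, all below 41.1, and passed the filter through other stages, so no size is given. Sf3a2 differed by -0.60 (SE 0.19) into the 2-cell stage (-0.46 and not called without 2-cell replicate 2), against 0.84 (SE 0.28) on its other probe set.

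Hnrnpdl, a relative of Hnrnpd, was higher in blastocysts than in oocytes by 0.73 (SE 0.15, adjusted p = 0.00016) on the probe set that stood for it, and lower by 0.75 (SE 0.18, adjusted p = 0.0012) on the other. The second held 1021.2, 1082.8 and 959.9 in 1-cell embryos and 226.3, 222.7 and 352.4 in blastocysts, with no overlap. Hnrnpa2b1 rose on both, with 3.70 (SE 0.30) on the other against 1.53 (SE 0.16). Srsf3 was called higher into the 8-cell stage on both, by 3.46 on the first. Its second probe set was below 41.1 on every oocyte, 1-cell and 2-cell array. It passed the filter through later stages, so no size is given for its rise. The dip of Srsf3 at the 2-cell stage was not called on that probe set (-0.39 (SE 0.27)), with all signals of both stages below 41.1. Snrpb2 was called only on its other probe set, which fell by 0.94 (SE 0.28, adjusted p = 0.0099) into the 1-cell stage, to signals of 31.5 to 64.5. It was also called higher into the blastocyst. Its 8-cell signals were 27.4 to 35.1, all below 41.1, and it passed the filter through other stages, so no size is given for that rise.

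**Figure D5:**
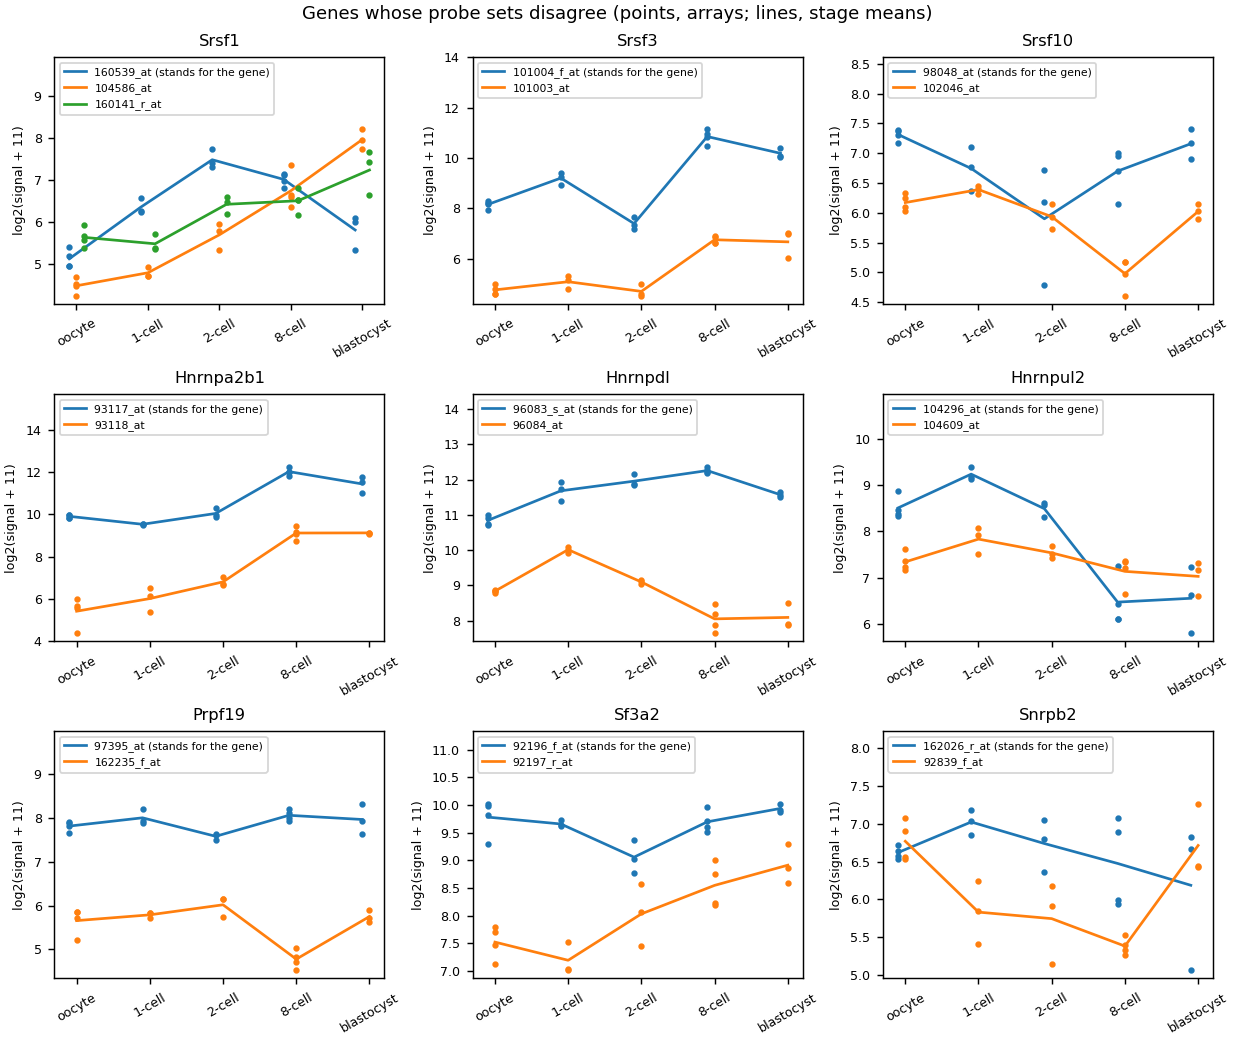
Mean log2(signal + 11) by stage (lines) and single arrays (points) for each tested probe set of the 9 genes whose probe sets disagree. The lines of Srsf1, Srsf10, Prpf19, Sf3a2 and Hnrnpdl cross or run in opposite directions between stages, while those of Hnrnpa2b1 and Srsf3 both rise into the 8-cell stage, as the calls of each probe set in the text show; no scaling alternative is drawn.

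Further splicing genes were taken from a list of 158 genes, of which 103 were tested and are not described above. Into the 8-cell stage 41 rose (39.8%) and 20 fell (19.4%), against 26.2% and 29.6% of all genes. The median difference was 0.21, against 0.65 for the 48 genes. The 8-cell mean was the highest in 36 of the 103 (35%), against 19.5% of all genes. Into the 1-cell stage 24 rose (23.3%) and 25 fell (24.3%), against 18% and 21% of all genes. Into the 2-cell stage 34 rose (33%) and 26 fell (25.2%), against 25.9% and 22.8%. Into the blastocyst 7 rose (6.8%) and 29 fell (28.2%), against 23.1% and 20.6%. In blastocysts 33 were higher and 31 lower than in oocytes (32% and 30.1%, against 32.4% and 33.8% of all genes). The largest rises into the 2-cell stage were those of Wdr77 (4.96 (SE 0.25, adjusted p = 5.5e-13)), a partner of the enzyme that methylates Sm proteins, Pspc1, a paraspeckle protein (3.73 (SE 0.31, adjusted p = 1.5e-09)), and Rbm8a, a core member of the exon junction complex (3.49 (SE 0.19, adjusted p = 1.4e-12)). Among the falls there, Snrnp27, Smn1, whose protein assembles Sm rings, and Clk1, a kinase of SR proteins, differed by -2.48 (SE 0.21, adjusted p = 2.0e-09), -2.37 (SE 0.20, adjusted p = 2.1e-09) and -2.25 (SE 0.20, adjusted p = 3.3e-09).

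Into the 8-cell stage the largest rises on this list were those of Syncrip (4.07 (SE 0.29, adjusted p = 1.5e-10)), an hnRNP-like protein, the chaperone Hspa8 (3.28 (SE 0.20, adjusted p = 1.4e-11)) and Sfpq (2.65 (SE 0.26, adjusted p = 1.6e-08)), a partner of Pspc1 in paraspeckles. The largest falls were those of Ptbp2, a repressor that binds pyrimidine tracts, at -3.85 (SE 0.30, adjusted p = 5.1e-10), Srpk2, a further kinase of SR proteins, at -3.03 (SE 0.24, adjusted p = 6.5e-10), and Esrp1, an epithelial splicing regulator, at -1.41 (SE 0.22, adjusted p = 1.3e-05). The related Ptbp3 had the largest rise into the blastocyst, 1.95 (SE 0.25, adjusted p = 2.0e-06). The largest falls into the 1-cell stage were those of Bud31 (-2.82 (SE 0.17, adjusted p = 3.3e-11)), Ppie (-2.36 (SE 0.23, adjusted p = 4.0e-08)) and Puf60 (-2.19 (SE 0.16, adjusted p = 5.1e-10)), and the largest rise was that of Snw1 (2.21 (SE 0.42, adjusted p = 0.00023)). The largest fall into the blastocyst was that of Crnkl1 (-3.07 (SE 0.15, adjusted p = 1.8e-12)), on a probe set whose name marks dropped probes. On the lower side of these differences the stage means of Wdr77, Pspc1, Syncrip, Sfpq, Ptbp2, Srpk2 and Ppie were below 41.1, so the sizes given for them depend on the offset of 11.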

How the data were processed

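Signals came from 17 Affymetrix MG-U74Av2 arrays of 5 stages, grouped by the sample titles. The deposited values are intensities, 1 per probe set and array on a linear scale, which the authors had scaled array by array. Their software, its version and the target of that scaling are not given in the sources used here. Trimmed means (middle 96%) of the arrays were nearly equal at 150.0, so no further scaling was applied. There were no detection calls, and the number of arrays limits the precision.

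After removing 66 control probe sets, 8067 probe sets with a signal above 41.1 on at least 3 arrays were tested on log2(signal + 11). A mean per stage was fitted with limma 3.58.1 in R 4.3.3 (lmFit, eBayes with an intensity trend, 12 residual degrees of freedom, Benjamini-Hochberg within each comparison over all tested probe sets). Stages were compared with the preceding stage, and blastocyst with oocyte. Symbols came from the platform annotation, updated by Entrez ID for 10817 probe sets: 10833 probe sets had 1 symbol, 396 several and 1193 none. The probe set with the highest mean signal stood for its gene. The fit was tested on simulated data.

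Members, gene lists and alternatives were chosen with earlier results of these data known. Every splicing gene may be named, and of the further splicing genes the 3 with the largest called rise and fall in each comparison. Replicate numbers were not used as a block. No batch is given in the labels.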

Additional observations from a re-analysis of the deposited data

Results flagged for a closer look

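In stages with 4 arrays, 96 sets of 4 signals were examined for a single array far from the others, and 4 were found. Chance gives about 1 in 20. In oocytes, Hnrnph1 read 443.7 in replicate 4 against 538.1 to 556.2 on the others, Prpf8 read 445.3 in replicate 3 against 372.1 to 381.8, and Srsf4 read 157.1 in replicate 3 against 114.1 to 120.1. In 8-cell embryos, Sf3b5 read 326.6 in replicate 4 against 539.9 to 574.2, and its rise into the blastocyst was not called without that array (0.43).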

How the results depend on the processing

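The number of arrays limits all counts, and signals near the filter are noisy. Counts kept within 1.5 times of the reported ones under quantile normalization, median centring, offsets of 1 and 50, no filter, a stricter filter (152.5), no intensity trend and array weights. Scaling on the hybridisation spikes moved them: 0 rose and 25 fell into the 1-cell stage, 5 fell into the 2-cell stage, 5 rose and 7 fell into the 8-cell stage, 31 rose and 1 fell into the blastocyst, 15 were higher in blastocysts than in oocytes, 1 had its highest mean at the 8-cell stage and 2 their lowest in oocytes. Of all 6044 genes, 142 had their highest mean at the 8-cell stage and 26 their lowest in oocytes under that scaling. Of the 2 rises into the blastocyst, 1 was left with only the 2 stages compared in the fit and 5 were found with probe sets averaged per gene, and the 14 falls became 9 with probe sets whose name has no suffix.

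Leaving out each array in turn gave 13 to 18 rises and 8 falls into the 1-cell stage, 15 to 17 and 8 to 11 into the 2-cell stage, 22 to 27 and 3 into the 8-cell stage, and 0 to 3 and 8 to 13 into the blastocyst. It gave 23 to 27 genes higher and 5 lower in blastocysts than in oocytes, 44 to 45 that differed between stages, 21 to 26 highest at the 8-cell stage and 16 to 18 lowest in oocytes. Replicate numbers did not pair the arrays: 2 of 15 pairs of stages had a correlation of deviations above 0.1 (range -0.03 to 0.13). With the replicate block, 1 rise into the blastocyst was left, and the other counts kept within 1.5 times.

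Single genes were compared where their change was called or their probe sets disagreed. Their sign turned under the spike scaling into the 1-cell stage Hnrnpa1 (-0.37), Hnrnpdl (-0.27), Hnrnph1 (-0.51), Hnrnph3 (-0.21), Hnrnpr (-0.55), Hnrnpul2 (-0.39), Prpf6 (-0.16), Snrpb (-0.21), Snrpd3 (-0.015), Snrpe (-0.33), Srsf11 (-0.38), Srsf3 (-0.063) and Srsf4 (-0.36); into the 8-cell stage Prpf19 (-0.16), Sf3a2 (-0.0017), Sf3b1 (-0.14) and Snrpa1 (-0.051); into the blastocyst Hnrnpa2b1 (0.59), Hnrnpdl (0.49), Hnrnph1 (0.66), Hnrnpu (0.29), Prpf19 (1.08), Sf3b1 (0.67), Snrpb (0.59), Snrpb2 (0.89), Snrpe (0.66), Srsf2 (0.21), Srsf3 (0.51), Srsf6 (0.61) and Srsf9 (0.32). With probe sets averaged per gene it turned into the 2-cell stage Sf3a2 (0.12), into the 8-cell stage Hnrnpdl (-0.37), Prpf19 (-0.38) and Srsf10 (-0.078), into the blastocyst Prpf19 (0.44), Snrpb2 (0.52) and Srsf1 (0.25), between blastocyst and oocyte Hnrnpdl (-0.0076). With probe sets without a suffix it turned into the 2-cell stage Hnrnpdl (-0.92), into the 8-cell stage Hnrnpdl (-1.05), into the blastocyst Hnrnpdl (0.041), between blastocyst and oocyte Hnrnpdl (-0.75). It also turned into the 8-cell stage Srsf1 (1.05), into the blastocyst Srsf1 (1.22) under the stricter filter, and into the 8-cell stage Hnrnpdl (-0.43) under quantile normalization. The cause was not tested, except that the probe set alternatives change which probe set is read. The alternatives for the stage peaks and the fit without 8-cell replicate 2 were chosen after seeing the data.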
